A study of Homo sapiens with 24 samples.

Results

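The mixed-lineage kinases and their closest relatives were followed through colon cancer cells in which one of them, MLK4 (gene symbol MAP3K21), had been made inducible. The 6 genes were MAP3K21, MAP3K9 (MLK1), MAP3K10 (MLK2), MAP3K11 (MLK3), MAP3K12 (DLK) and MAP3K13 (LZK). All probe sets that the platform annotation gives to exactly 1 of these genes were taken, without regard to their values. That gave 16 probe sets of 41097 with a single gene symbol, among 54675 on the array. MAP3K21 and MAP3K10 had 1 probe set each, MAP3K9 and MAP3K11 had 2 each, MAP3K12 had 3 and MAP3K13 had 7. No member gene was named by a probe set with several symbols.

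Mixed-lineage kinases stand at the top of a kinase cascade. They phosphorylate the MAP2K kinases MAP2K4 and MAP2K7, which in turn switch on the JNK kinases, and JNK phosphorylates JUN. MLK1 to MLK4 carry an SH3 domain, a kinase domain, a leucine zipper and a region that binds the small GTPases RAC1 and CDC42, whereas DLK and LZK share the kinase and zipper parts and are best known from neurons, where they respond to axon injury. In colon cancer MLK4 is known as a gene that is recurrently mutated.

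The arrays came from HCT15 and HT115, both established human colorectal cancer lines whose own MLK4 carries loss-of-function mutations per the labels. Each line existed in a version with inducible wild-type (WT) MLK4 and a version with an inducible mutant form used as the control, MLK4-Y330H in HCT15 and MLK4-E314K in HT115. Each version was measured in 3 arrays tagged Tet, which stand for 24 h of tetracycline, and in 3 arrays without the tag, called untagged here, whose treatment the labels do not give. This makes 8 groups of 3 arrays and 24 arrays in all. The labels give no promoter, clone or induced amount for any version, and do not say that replicates were grown apart. The p-values below therefore rest on the spread between these arrays alone, and that spread may be technical.

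The 6 HT115 WT arrays lay on another scale, with medians from 5.55 to 5.61 on the log2 scale against 6.38 to 6.48 in the other 18. Levels were therefore compared within the 18 arrays of one scale, and HT115 WT was used for changes within its own 6 arrays and for ranks within an array. The lowest correlation between arrays of a group was 0.986. For ACTB, whose 3' end exceeds its 5' end by more where RNA is less intact, this excess was 0.931 and 1.17 in the HCT15 WT arrays numbered 1 and between 0.298 and 0.646 in the others. Of 12 colon epithelium markers 6 (EPCAM, CDH1, KRT8, KRT18, KRT19 and CDX2) were above the level of tissue-restricted genes, defined below, in all groups. None of 6 fibroblast or 5 endothelial markers was above it in any group.

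All 6 genes matched the RefSeq promoter table (GRCh38.p14), with 7 promoters in total. They were searched on both strands, in the 250 bases before the start, for TGACGTCA, the motif read by ATF and CREB factors and by JUN with ATF partners, for TGANTCA, the AP-1 motif, and for GGGCGG, the core of the motif read by SP1. The promoter of MAP3K21 is shown because this gene is the one made inducible, and that of MAP3K13 because most of its probe sets differed between HCT15 and HT115 E314K and because it alone of the 6 genes held TGACGTCA. The MAP3K21 sequence is chr1:233327474-233327723 on the plus strand, with GGGCGG in capitals. The MAP3K13 sequence is chr3:185282711-185282960 on the plus strand, with TGACGTCA in capitals.
MAP3K21: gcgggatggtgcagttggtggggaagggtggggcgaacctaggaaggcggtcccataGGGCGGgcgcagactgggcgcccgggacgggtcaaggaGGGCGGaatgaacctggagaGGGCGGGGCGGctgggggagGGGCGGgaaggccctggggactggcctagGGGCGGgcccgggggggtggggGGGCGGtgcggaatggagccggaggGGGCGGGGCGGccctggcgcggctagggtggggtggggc
MAP3K13: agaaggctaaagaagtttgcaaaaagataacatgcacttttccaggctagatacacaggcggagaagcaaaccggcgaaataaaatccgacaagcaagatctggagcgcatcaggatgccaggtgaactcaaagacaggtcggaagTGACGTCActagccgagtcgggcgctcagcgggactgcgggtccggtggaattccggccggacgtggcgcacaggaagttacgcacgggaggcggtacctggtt
GGGCGG matched 9 times before MAP3K21, counting matches that share a base, in a window of 77.2% GC, and did not match before MAP3K13 (55.2% GC). TGACGTCA started 104 bases before the MAP3K13 start. Of 35114 promoters in the table, 42.6% held GGGCGG, 1.65% held TGACGTCA and 6.57% held TGANTCA, which was in none of the 7 promoters. A match is a description of the letters and not a site of binding.

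No detection call was part of the data used here. As a yardstick for dim probe sets, 112 probe sets of 69 genes restricted to other tissues (globins, lens crystallins, sperm, heart, pituitary and brain genes and the like) were taken, and a probe set was counted as above this reference in a group when all 3 arrays exceeded the 95th percentile of those probe sets on the same array. That percentile lay between 7.29 and 7.77 on the HCT15 arrays, between 7.77 and 8.21 on the HT115 E314K arrays and between 7.44 and 7.77 on the HT115 WT arrays. By this rule 5 of 16 member probe sets, from 4 genes (MAP3K21, MAP3K9, MAP3K12 and MAP3K13), were above the reference in all 8 groups, against 27.5% of all single-symbol probe sets. MAP3K11 was above it in 6 groups, and MAP3K10 in none. Fewer of all single-symbol probe sets passed in HT115 WT (30.3% untagged, 30.8% with Tet) than in the other groups (34.0% to 40.4%). A miss in HT115 WT is thus not read as a lower level.

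MAP3K21 (chromosome 1, 233327724 to 233385148, GRCh38.p14; probe set 228565_at) stood far above the reference on every array. Its log2 signals were 10.90, 10.64 and 10.79 in untagged HCT15 WT and 10.43, 10.85 and 10.69 in untagged HCT15 Y330H. In untagged HT115 E314K they were 10.68, 10.84 and 10.48, and in untagged HT115 WT, on its own scale, 10.17, 10.29 and 10.26. The means of the 6 groups of one scale ran only from 10.62 to 10.78, and the arrays of all 6 overlapped. HCT15 and HT115 E314K were close in this signal, with a difference of HCT15 minus HT115 E314K of 0.05 (95% confidence interval -0.19 to 0.29, n = 6 and 3 untagged arrays, limma).

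Of the other SH3-bearing kinases, MAP3K9 (chromosome 14, 70722526 to 70809513) was above the reference in all groups through 213927_at, with signals from 8.37 to 9.23 over the 18 arrays. Its second probe set, 214969_at, lay between 6.21 and 7.12 and was above the reference in no group. The HCT15 Y330H arrays were spread for this gene. By 213927_at they read 8.38, 9.06 and 9.01 untagged and 8.37, 9.13 and 9.23 with Tet, so the arrays numbered 1 were low in both groups. The same arrays were also the low ones for 214969_at, at 6.21 and 6.36 where the other 4 read between 6.90 and 7.12. They stood apart in other members too, as the highest of their groups for 226190_at, 226556_at and 211083_s_at of MAP3K13 and 205447_s_at of MAP3K12. The spread is thus not particular to MAP3K9.

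MAP3K11 (chromosome 11, 65597757 to 65614221) had 203652_at at 7.48 to 8.27 in the 12 HCT15 arrays and 8.20 to 8.56 in the 6 HT115 E314K arrays. It was above the reference in these 6 groups and not in the HT115 WT groups. Its mean percentile rank within the array was nevertheless 72.3 in HT115 WT, beside 72.1 in HT115 E314K and 68.2 in HCT15. Its other probe set, 1558984_at, stayed between 4.84 and 5.45 on the 18 arrays and was above the reference in no group. MAP3K10 (chromosome 19, 40191426 to 40215575) was measured by 206362_x_at, a probe set of the kind whose probes can also match other transcripts. It read between 6.74 and 7.16 over the 18 arrays and was below the reference in every group. A signal below the reference is a low signal of that probe set and does not show that the RNA is absent, and in bulk RNA fewer cells with a transcript and less of it per cell cannot be told apart.

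The relatives without an SH3 domain were both above the reference. MAP3K12 (chromosome 12, 53479669 to 53501539, where the annotation also places parts of PCBP2 and TARBP2) had 230921_s_at at 9.78 to 11.09 over the 18 arrays, 205448_s_at at 7.55 to 8.81 and 205447_s_at at 5.65 to 7.21. The first was above the reference in 8 groups, the second in 6 and the third in none. MAP3K13 (chromosome 3, 185282961 to 185489094, overlapping 4 other annotated loci) had 226190_at at 9.76 to 11.04 and 226556_at at 8.89 to 10.04, both above the reference in all groups. Its 206249_at, at 7.22 to 8.71, was above it in 4 groups, and the remaining 4 probe sets of the gene in none. The positions of the probe sets within these transcripts, and which neighbouring or overlapping transcripts they might read, are not given in the sources used here.

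**Figure D1:**
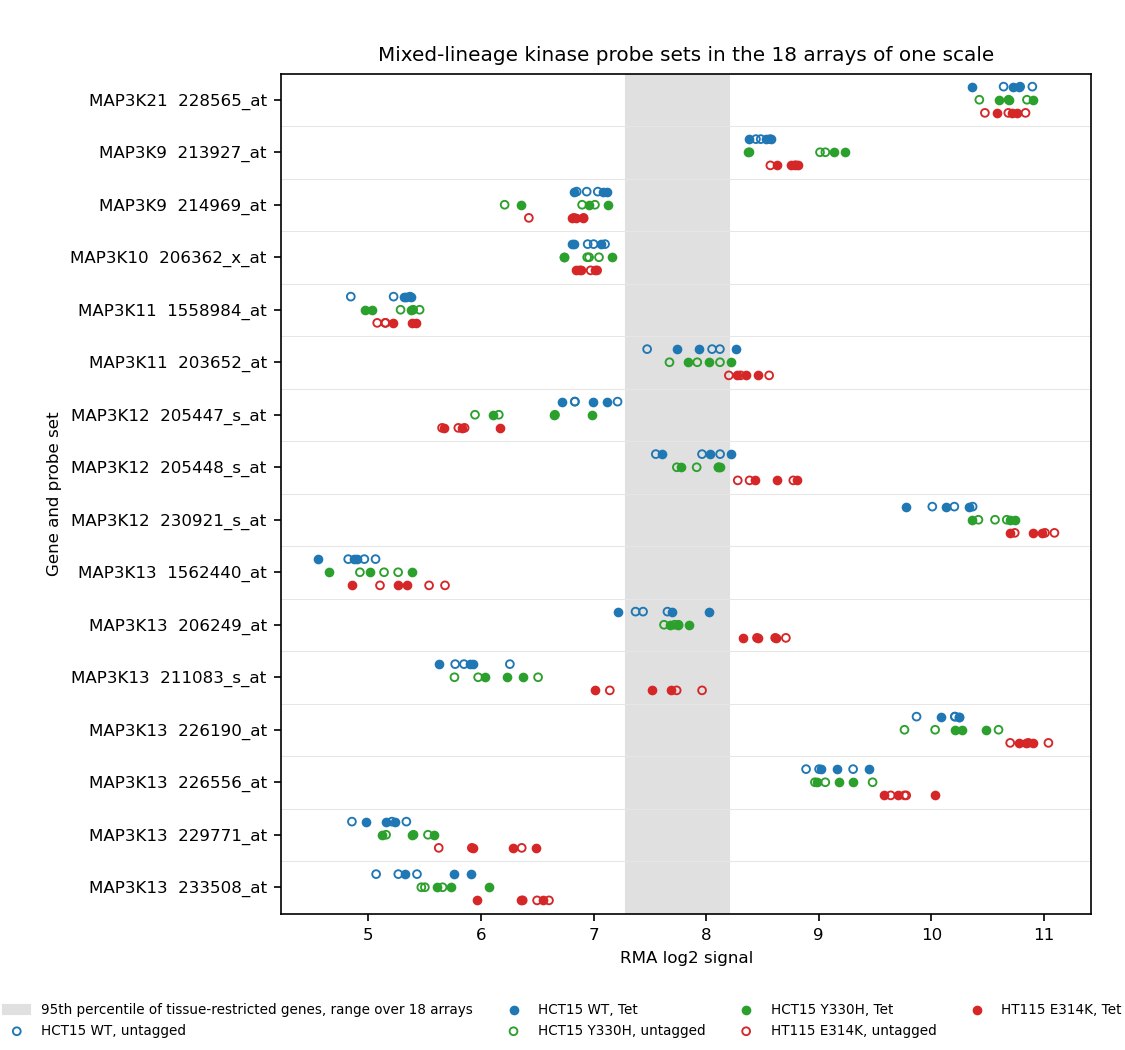
RMA log2 signal (x axis) of each of the 16 probe sets (y axis) on the 18 arrays of one scale; each point is 1 array, open for untagged and filled for Tet, coloured by line and form, and the grey band is the range over arrays of the 95th percentile of the tissue-restricted genes. MAP3K21 reads between 10.36 and 10.90 in every group, whereas all HT115 E314K arrays lie to the right of all HCT15 arrays in 5 of the 7 MAP3K13 rows; levels of different probe sets are not comparable with each other.

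The first question of the design is what changed when MLK4 was induced. No member probe set passed the test in any of the 4 inductions (limma, Benjamini-Hochberg adjusted p under 0.05 over 41097 probe sets). That is 0 of 16 in each induction, against 0.628% of all single-symbol probe sets with WT in HCT15 (0.555% higher and 0.073% lower), 0.134% with WT in HT115 (0.124% higher and 0.00973% lower), and 0% with either mutant form. At an unadjusted p under 0.05 there was 1 member with WT in HCT15, 1 with WT in HT115, and 0 with either mutant. The tests of WT against mutant within a line also called 0 of 16, against 0.0535% of all probe sets in HCT15 and 0.0195% in HT115, with 1 and 0 members at an unadjusted p under 0.05. With the pairs of same-numbered Tet and untagged arrays of a version as blocks, 0 members were called in all 6 tests.

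The probe set of MAP3K21 itself showed no rise with tetracycline. In HCT15 WT the Tet arrays read 10.78, 10.36 and 10.73, a change of -0.15 against untagged (95% confidence interval -0.44 to 0.13, adjusted p = 0.823 in limma). In HT115 WT they read 9.99, 10.22 and 9.95, a change of -0.19 (interval -0.47 to 0.09, adjusted p = 0.913 in limma). In HCT15 WT the Tet array was the lower one in 3 of 3 same-numbered pairs, and in both inductions the arrays of the groups overlapped. The mutant forms gave 0.08 (interval -0.20 to 0.36) in HCT15, with Tet arrays at 10.60, 10.69 and 10.90, and 0.02 (interval -0.26 to 0.30) in HT115, with Tet arrays at 10.72, 10.58 and 10.76. Since the part of the transcript that this probe set reads is not known here, the value does not check the induction.

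Among the relatives, the change with the smallest p in HCT15 WT was in 233508_at of MAP3K13, a dim probe set that read 5.43, 5.27 and 5.07 untagged and 5.91, 5.32 and 5.76 with Tet. The change was 0.41 (SE 0.18, interval 0.03 to 0.79), higher in 3 of 3 pairs, and did not pass after adjustment (adjusted p = 0.492 in limma). The bright MAP3K13 probe sets 226190_at and 226556_at had changes of 0.10 and 0.14 there. In HT115 WT the smallest p was that of MAP3K10, whose arrays read 6.41, 6.27 and 6.28 untagged and 6.22, 6.07 and 5.77 with Tet. Its change was -0.30 (SE 0.13, adjusted p = 0.636 in limma), with groups that did not overlap. In that induction 4 of 16 members did not overlap between groups, against 14.1% of all probe sets, and in HT115 E314K 1 of 16, against 6.21%. In HCT15 the count was 0 of 16 with both forms, against 13.8% with WT and 6.95% with Y330H.

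Over the 16 probe sets the median change was 0.03 with WT in HCT15, 0.08 with Y330H, 0.05 with WT in HT115 and 0.01 with E314K, beside medians over all probe sets of -0.02, -0.01, -0.01 and 0.01. The confidence intervals of the members reached from -0.63 to 0.79 with WT in HCT15 and from -0.58 to 0.57 with WT in HT115. For the Y330H and E314K inductions they reached from -0.55 to 0.74 and from -0.75 to 0.68. Apart from those of 233508_at with WT in HCT15 and of MAP3K10 with WT in HT115, each interval of a member in the 4 inductions included 0.

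**Figure D2:**
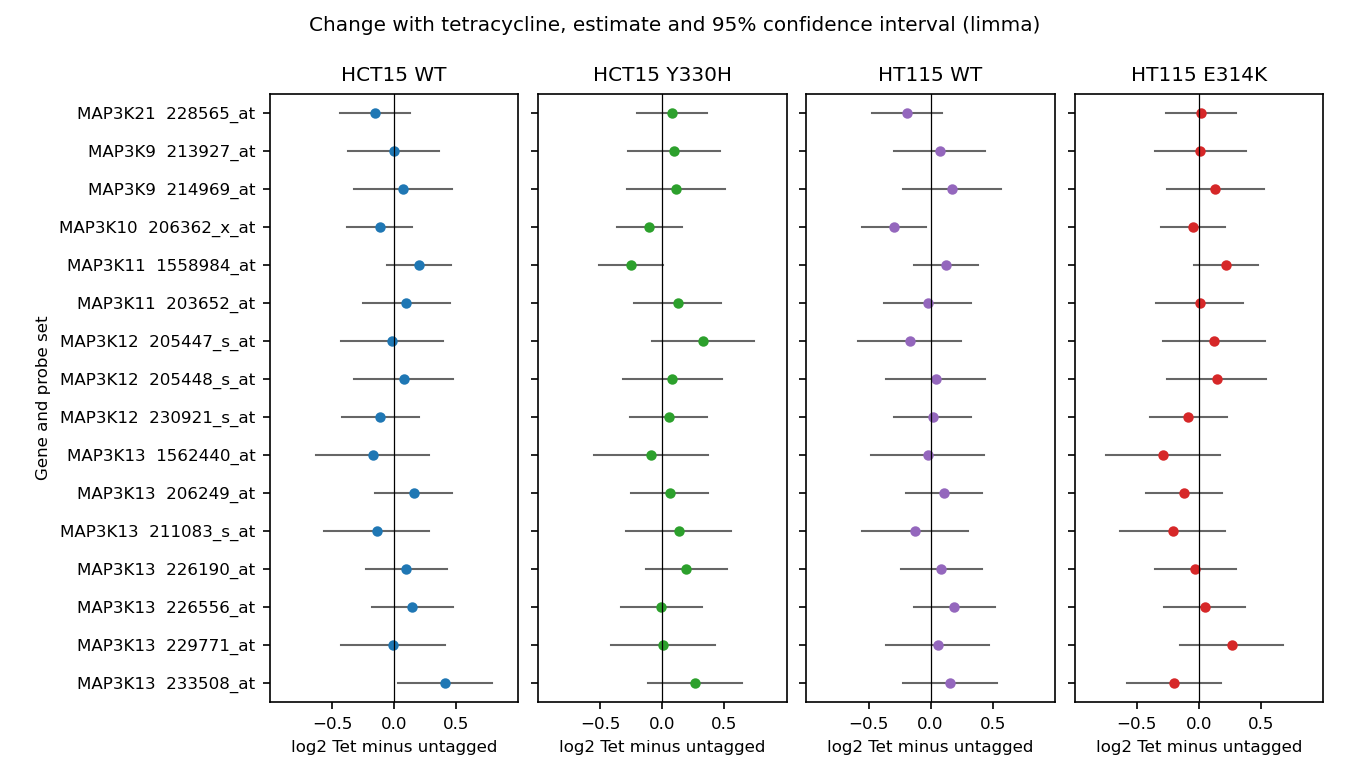
Change with tetracycline (x axis, log2 Tet minus untagged) of each of the 16 probe sets (y axis) in the 4 inductions; points are limma estimates from 3 against 3 arrays and lines are 95% confidence intervals. No member passed the adjusted threshold, and MAP3K21 in the top row lies at -0.15, 0.08, -0.19 and 0.02 from left to right.

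Untagged HCT15 and untagged HT115 E314K differed in probe sets of MAP3K13, MAP3K12 and MAP3K11. In the comparison of untagged HCT15 (6 arrays of both versions, the mean of the 2 group means) with untagged HT115 E314K (3 arrays), 10 of 16 member probe sets passed the test, 1 higher and 9 lower in HCT15. Over all single-symbol probe sets 36.7% passed, 19.6% higher and 17.1% lower in HCT15. The median difference was -0.52 over the member probe sets and 0.06 over all probe sets. MAP3K13 made up 7 of the 16 and 6 of the 10 called, so these figures rest mostly on that gene. By gene the median was -0.75 for MAP3K13, -0.58 for MAP3K12 and -0.16 for MAP3K11. It was 0.05 for MAP3K21, 0.02 for MAP3K9 and 0.04 for MAP3K10. MAP3K21, MAP3K9 and MAP3K10 had no called probe set.

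MAP3K13 was lower in HCT15 than in HT115 E314K by 6 of its 7 probe sets, and all 7 estimates were negative. The brightest, 226190_at, ran from 9.76 to 10.60 with a median of 10.21 over the 12 HCT15 arrays and from 10.70 to 11.04 with a median of 10.85 over the 6 HT115 E314K arrays. Its untagged means were 10.11 and 10.87, a difference of -0.75 (SE 0.14, 1.69-fold, adjusted p = 0.000115 in limma). The probe set 206249_at had means of 7.59 and 8.59, a difference of -0.996 (SE 0.13, 1.99-fold), and 226556_at had 9.12 and 9.73, a difference of -0.61 (SE 0.14).

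The other 3 called MAP3K13 probe sets were below the dim-gene reference in every group, so that their differences describe dim signals and no fold is given. Among them 211083_s_at had the largest estimate of the gene, -1.59 (SE 0.18, adjusted p = 1.92e-07 in limma), with signals from 5.62 to 6.51 in HCT15 and from 7.01 to 7.96 in HT115 E314K. The differences were -1.09 for 233508_at and -0.72 for 229771_at, both called, and -0.41 for 1562440_at, which was not (adjusted p = 0.0994 in limma). With Tet and untagged arrays pooled, the 12 HCT15 arrays and the 6 HT115 E314K arrays did not overlap in 6 of the 16 members, against 19.9% of all probe sets. These were 5 of the 7 probe sets of MAP3K13 and 205448_s_at of MAP3K12. The untagged arrays alone did not overlap in 10 of 16 members, against 29.6%. The probe sets of a gene read the same RNA and are not independent.

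**Figure D3:**
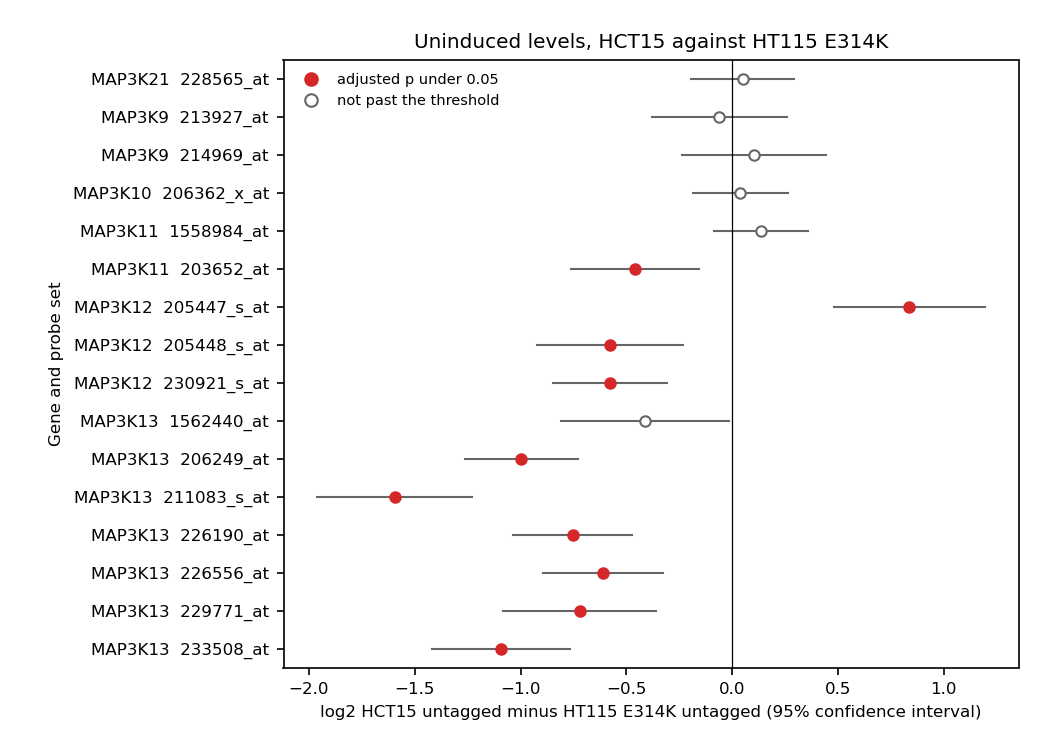
Difference in untagged arrays (x axis, log2 HCT15 minus HT115 E314K) of the 16 probe sets (y axis); points are limma estimates from 6 against 3 arrays, filled where the adjusted p was under 0.05, and lines are 95% confidence intervals. All 7 MAP3K13 rows lie left of 0, from -0.41 to -1.59, and the MAP3K12 rows lie on both sides.

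The 3 probe sets of MAP3K12 disagreed with each other. Its brightest, 230921_s_at, was lower in HCT15 (10.37 against 10.95, difference -0.58, SE 0.13, adjusted p = 0.0011 in limma), as was 205448_s_at (7.90 against 8.48, difference -0.58, SE 0.17). The dim 205447_s_at was higher in HCT15 (6.61 against 5.77, difference 0.84, SE 0.17, adjusted p = 0.000456 in limma). That last difference was 1.19 for HCT15 WT and 0.48 for HCT15 Y330H taken alone, and the latter did not pass (adjusted p = 0.0708 in limma). The call of 205448_s_at was lost without the untagged HT115 E314K array numbered 2 (difference -0.43, adjusted p = 0.0831 in limma). No direction is therefore given for MAP3K12 as a gene.

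For MAP3K11, 203652_at was lower in HCT15, with a difference of -0.46 (SE 0.15, means 7.89 and 8.36, adjusted p = 0.0152 in limma). The call was lost without the untagged HT115 E314K array numbered 3 (adjusted p = 0.111), with Tet arrays in place of untagged ones (-0.36, adjusted p = 0.0604) and when only the groups compared were fitted (adjusted p = 0.056), all in limma. Its 1558984_at had a difference of 0.14 that did not pass.

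HT115 WT could be set beside these groups only by the rank of a probe set within its own array, as a description. For 211083_s_at of MAP3K13 the mean percentile rank was 43.8 over the HCT15 arrays, 63.4 over HT115 E314K and 44.6 over HT115 WT. For 206249_at it was 65.1, 73.8 and 65.3, and for the bright 226190_at 88.6, 93.1 and 90.2. The mean rank in HT115 WT was nearer to HCT15 than to HT115 E314K in 7 of 7 MAP3K13 probe sets, and in 5 of them all 6 HT115 WT arrays ranked below all 6 HT115 E314K arrays. Of the 7034 probe sets over the whole array that were called higher in HT115 E314K than in HCT15, 25.2% ranked nearer to HCT15 in HT115 WT. Outside MAP3K13, the mean rank of 230921_s_at of MAP3K12 was 89.8 in HCT15, 93.3 in HT115 E314K and 88.4 in HT115 WT, where all 6 arrays ranked below all HT115 E314K arrays. For 205448_s_at of MAP3K12 the mean ranks were 68.1, 74.0 and 70.7, nearer to HCT15 as well. MAP3K11 203652_at, at 68.2, 72.1 and 72.3, and MAP3K12 205447_s_at, at 53.4, 40.7 and 45.6, ranked nearer to HT115 E314K. HT115 WT was thus nearer to HCT15 in 8 of the 9 member probe sets called lower in HCT15. By this measure the WT version of HT115 did not reach the ranks of the E314K version in 5 of 7 MAP3K13 probe sets. In 1562440_at and 229771_at the ranks of the HT115 WT and HT115 E314K arrays overlapped. For the bright 226190_at the mean rank in HT115 WT lay between those in HCT15 and HT115 E314K. The line, the version and the set of arrays cannot be told apart.

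**Figure D4:**
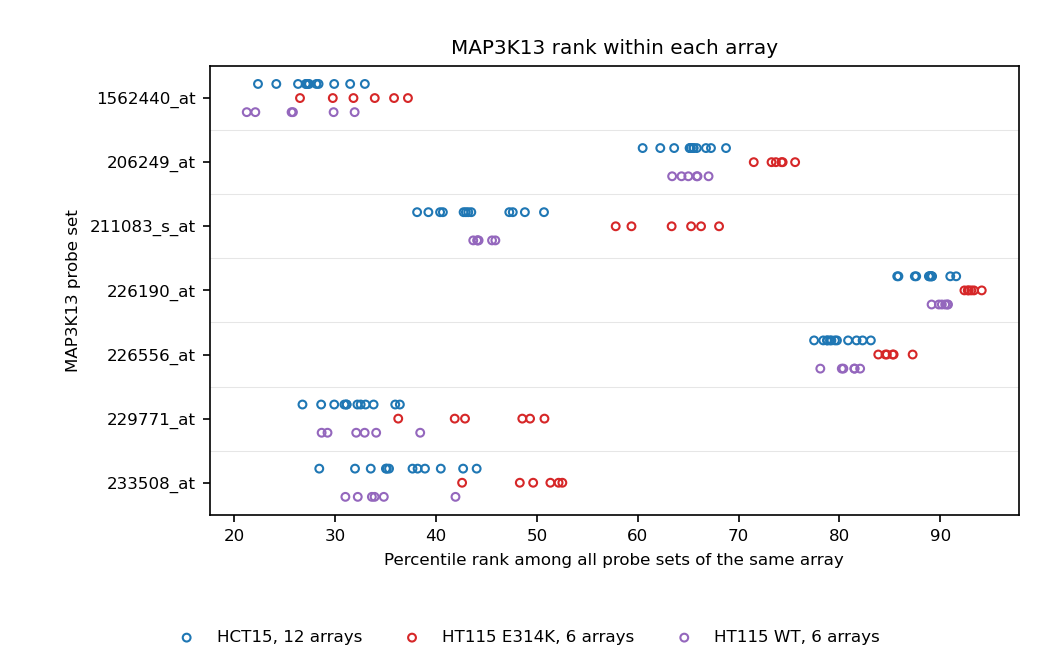
Percentile rank of each MAP3K13 probe set among all probe sets of the same array (x axis) for the 7 probe sets (y axis); each point is 1 array, of HCT15 (12 arrays), HT115 E314K (6) or HT115 WT (6). In 206249_at, 211083_s_at, 226190_at and 226556_at all HT115 E314K arrays rank above all HCT15 and HT115 WT arrays, as for 211083_s_at with means of 63.4 against 43.8 and 44.6, whereas HT115 E314K overlaps HCT15 in the other 3.

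Markers also moved between these groups. Of 18 colon epithelium probe sets 2 were higher and 11 lower in HCT15 (72.2%, against 36.7% of all). Among the lower ones were LGALS4 (-7.32), GPA33 (-5.49), KRT20 (-5.30) and CDX1 (-4.09). LYZ, which codes for lysozyme and stood among the 5 measured leukocyte markers, had means of 4.66 in untagged HCT15 WT and 13.70 in untagged HT115 E314K. In untagged HT115 WT, on the other scale, LYZ read 9.74. CD14, another of them, was higher in HCT15 by 2.26, and PTPRC, CD3E and ITGAM were above the reference in no group. The part of these differences in the MAP3K13 result was not tested.

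Between the HCT15 versions before induction, 1 of 16 members passed, against 5.48% of all probe sets (2.89% higher and 2.59% lower in WT). It was 205447_s_at of MAP3K12, which read 6.83, 7.21 and 6.83 in HCT15 WT and 6.66, 5.95 and 6.16 in HCT15 Y330H. The difference was 0.71 (SE 0.20, adjusted p = 0.0395 in limma), and the groups did not overlap. Its bright companion 230921_s_at had a difference of -0.36 in the opposite direction that did not pass (adjusted p = 0.19 in limma) and was called with the replicate number as a block (adjusted p = 0.0391) and with array weights (0.0187), with arrays at 10.01, 10.20 and 10.37 against 10.42, 10.57 and 10.67. The replicate block here takes equal numbers of different versions as matched, which was not checked. With array weights 213927_at of MAP3K9 was called too (adjusted p = 0.0309 in limma). In all, 3 of 16 members did not overlap, against 18.7%. The call of 205447_s_at was kept in 8 of 15 other settings and lost without the untagged HCT15 WT array numbered 1 (adjusted p = 0.0719) or 2 (0.174) or the untagged HCT15 Y330H array numbered 2 (0.144) or 3 (0.134), all in limma. Markers moved between these versions too. Of 18 colon epithelium probe sets 5 were lower and 0 higher in WT. Differences were -3.66 for CDH17, -1.09 for LGALS4, -0.96 for KRT19 and -0.80 for CDX2. The LGALS4 means, 4.97 in WT and 6.06 in Y330H, were below the dim-gene reference. Of 23 fibroblast probe sets 2 were higher, both of COL1A1 (1.63 and 0.67) and below the dim-gene reference, and 1 of 11 leukocyte probe sets, CD14, was higher by 0.67. The part of these in the MAP3K12 difference was not tested.

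The wider pathway gave a frame for these values. Of the other MAP3K genes, 16 were measured by 49 probe sets, and 0 passed in any induction or between the HCT15 versions in limma. At an unadjusted p under 0.05 there were 6 with WT and 2 with Y330H in HCT15, 4 with WT and 1 with E314K in HT115, and 13 between the HCT15 versions. Between HCT15 and HT115 E314K 14 of these probe sets were higher and 7 lower in HCT15 (42.9%, against 36.7% of all single-symbol probe sets). Differences were -1.88 and -1.63 by 2 probe sets of MAP3K5 (ASK1, a stress-activated MAP3K), -1.75 for TAOK3 and 0.61 for TAOK1. The kinases downstream of the MLKs, 11 genes in 28 probe sets, had 0 calls in the inductions, with 2 (WT in HCT15), 1 (WT in HT115) and 0 (either mutant) at an unadjusted p under 0.05 in limma. Between HCT15 and HT115 E314K 15 were higher and 4 lower in HCT15 (67.9%, against 36.7% of all). MAP2K6, which activates p38 kinases, was lower by 2 probe sets with differences of -4.87 and -2.38, and MAPK9, which codes for JNK2, was higher by 1.29 and 0.98. Between the HCT15 versions only MAPK12 was called (3.57% of the list, against 5.48% of all), with a difference of 0.65 (adjusted p = 0.021 in limma). This call was lost without the untagged HCT15 WT array numbered 1 or 2 or the untagged HCT15 Y330H array numbered 2 or 3 (adjusted p from 0.0692 to 0.0909 in limma).

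Proteins that activate, hold or turn over MLKs made up 18 measured genes in 57 probe sets. With WT MLK4 in HCT15, 2 of these probe sets rose and 0 fell (3.51%, against 0.628% of all). In the other 3 inductions 0 were called, and 5 (WT in HT115) and 0 (either mutant) had an unadjusted p under 0.05 in limma. SH3RF2, a member of the POSH family, rose from 8.37 to 9.33 by 228892_at, a change of 0.96 (SE 0.13, adjusted p = 0.000705 in limma). It was called in each of 6 fits without 1 array, and not when only the groups compared were fitted (adjusted p = 0.253 in limma). SPAG9, a JNK scaffold, rose from 9.59 to 10.17, a change of 0.58 (SE 0.13, adjusted p = 0.0414 in limma). That call was kept in 7 of 16 other settings. It was lost without the HCT15 WT Tet array numbered 1 (adjusted p = 0.258) or 2 (0.132), all in limma. The untagged array numbered 2 (0.176) or 3 (0.161) was needed too. It was also lost without both HCT15 WT arrays numbered 1 (0.229) and with only the groups compared (0.334). With WT in HCT15 3 of 18 colon epithelium probe sets rose too (16.7%, against 0.628% of all). KRT19 rose by 1.36 and 0.70, and KRT20 from 4.29 to 5.79, both means below the dim-gene reference. The part of these markers in the SH3RF2 and SPAG9 changes was not tested. The test of WT against Y330H called neither SH3RF2 nor SPAG9, with differences of 0.84 (adjusted p = 0.165) and 0.62 (adjusted p = 0.602) in limma. Between HCT15 and HT115 E314K 6 of the 57 were higher and 14 lower in HCT15 (35.1%, near the 36.7% of all single-symbol probe sets). Among the lower ones were SH3RF2 (7.44 against 9.43 by 243582_at, not the probe set that rose) and the hematopoietic GTPase RAC2 (a difference of -1.89). MAP4K1, a kinase that acts on MAP3K proteins, was lower too (-1.34 and -1.29).

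While the members themselves showed no call, 14 genes known to respond to JNK signalling, in 34 probe sets, had calls with WT. With WT in HCT15 9 probe sets of 4 genes were higher (26.5%, against 0.628% of all in either direction). In the HT115 WT induction 4 probe sets of 3 genes were higher (11.8%, against 0.134%). The Y330H and E314K inductions had 0 calls, and 1 and 0 probe sets at an unadjusted p under 0.05 in limma. DUSP1, a phosphatase that acts on JNK and p38, rose by 1.29 (201041_s_at) in HCT15 and by 1.00 in HT115. JUN rose in HCT15 by 1.35 in both 213281_at and 201466_s_at. With only the groups compared in the fit, these HCT15 calls were lost (adjusted p from 0.0779 to 0.102 in limma). The 4 calls in HT115 WT were of dim signals. DUSP1 went from a mean of 6.51 untagged to 7.51 with Tet. DUSP10 went from 5.60 to 6.84 and from 5.54 to 6.72, and CDKN2B from 4.35 to 5.68. The dim-gene reference lay between 7.44 and 7.77 on these arrays. Of these calls, that of DUSP1 held in each of 6 fits without 1 array. CDKN2B was lost in all 6, and at least 1 DUSP10 probe set was lost without any array but the Tet array numbered 2, so that only DUSP1 held without the Tet array numbered 1 or 3 or the untagged array numbered 2. The test of WT against mutant called 3 of 34 in HCT15 (8.82%, against 0.0535% of all). There DUSP1 (1.18) held in 8 of 12 fits without 1 array and JUN (1.21 and 1.38) in 3 and 2. All 3 calls were lost without both HCT15 WT arrays numbered 1 (adjusted p from 0.103 to 0.330 in limma). They were also lost with only the groups compared (0.275 to 0.369) and with only the 18 arrays of one scale (0.0787 to 0.0981). In HT115 the test of WT against mutant called 0, with 12 at an unadjusted p under 0.05 in limma. The adjusted p there was 0.109 for DUSP1 and 0.171 for DUSP10. Before induction 5 of the 34 were higher in HCT15 WT than in Y330H (14.7%, against 5.48% of all in either direction). Among them were FOSL2 (0.84), JUN (0.66) and DUSP4 (0.85 and 0.76). The JUN call was lost without the untagged HCT15 Y330H array numbered 3 (adjusted p = 0.0718 in limma), and each DUSP4 call in 4 of 6 fits without 1 array. Against HT115 E314K 4 were higher and 10 lower in HCT15 (41.2%, against 36.7% of all), with JUN at -1.21 and -1.43 and DUSP4 at -2.21 and -1.62. These JNK genes were chosen with results of these data known, and are given only to set the members' values against a list with calls.

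Over the 18 arrays of one scale, the genes whose signal varied most like that of MAP3K21 were PPIG (r = 0.876), HNRNPR (0.862), RNF20 (0.862), PGGT1B (0.847) and TM9SF3 (0.829), among 18038 candidate probe sets. Within the 12 HCT15 arrays r was 0.920, 0.861, 0.866, 0.850 and 0.889, and within the 6 HT115 E314K arrays 0.973, 0.946, 0.920, 0.913 and 0.633. Without the 2 arrays farthest from the median of MAP3K21 it was 0.915, 0.798, 0.816, 0.837 and 0.737. Since MAP3K21 ranged only from 10.36 to 10.90, these values describe small deviations that arrays share, and they are given with no test.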

How the data were processed

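The deposited values are log2 signals of each probe set, for which the submitters' processing notes name RMA and Affymetrix Power Tools, with versions not given in the sources used here. RNA was amplified with a whole-transcriptome kit per the labels' protocols. Probe sets were named from the platform annotation: 41097 had 1 symbol, 1801 several and 11777 none.

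One limma fit (version 3.58.1, R 4.3.3) of 8 group means over 24 arrays (16 residual and 5.07 prior degrees of freedom) covered all single-symbol probe sets, with Benjamini-Hochberg adjustment over all of them and a threshold of 0.05. Precision is limited by having 3 arrays in each group. The scripts were tested on simulated data. Every probe set of the members was named; from each other list up to 4 called probe sets per comparison were eligible, and the 5 genes most correlated with MAP3K21. The members and lists were chosen with earlier results of these data known.

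Same-numbered Tet and untagged arrays deviated together in HCT15 WT (r of 0.552, 0.450 and 0.359 across probe sets) and HCT15 Y330H (0.750, 0.563 and 0.320), and directions were counted over pairs there. The main fit did not pair arrays. Estimates and p-values above therefore compare unpaired groups, except where a replicate block is named. They did not meet this check in HT115 E314K (0.595, 0.064 and 0.320) or HT115 WT (0.241, 0.179 and -0.003).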

Additional observations from a re-analysis of the deposited data

Results flagged for a closer look

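For 2 dim probe sets all 3 same-numbered pairs moved one way in one version and the opposite way in another, and none of these differences was tested. MAP3K11 1558984_at had a change of -0.25 with Y330H in HCT15, against 0.13 with WT in HT115 (a difference of -0.379) and 0.22 with E314K in HT115 (a difference of -0.472). MAP3K13 233508_at had changes of 0.41 with WT and 0.26 with Y330H in HCT15, against -0.20 with E314K in HT115, which makes differences of 0.612 and 0.461. The replicate numbers were not shown to pair the arrays in HT115. For MAP3K11 the HT115 arrays did not overlap between Tet and untagged, so the direction there does not rest on the numbers. For MAP3K13 in HT115 E314K they overlapped, and the direction in all pairs does rest on them. Neither probe set was above the level of tissue-restricted genes in any group, and none of the 4 inductions called either.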

How the results depend on the processing

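In the 4 inductions and the 2 differences between inductions, the 96 member values were recomputed in 1690 alternatives in all, and a member was called in 0 of them. All-gene counts did move. With same-numbered pairs as blocks they were 1683 against 258 (WT in HCT15) and 304 against 55 (WT in HT115). For the differences between inductions they were 275 against 22 in HCT15 and 47 against 8 in HT115. In each case 0 members were among them. In the line comparison 6 of 9 tested members were called among the 50% brightest probe sets and 3 of 6 with the brightest probe set per gene, against 10 of 16, since fewer were tested; each of the 6 called MAP3K13 probe sets was called in every alternative that tested it. Between the HCT15 versions the member count of 1 became 0 among the 50% brightest and with the brightest probe set per gene, neither of which tested 205447_s_at. It was 0 with only the groups compared, with only the 18 arrays of one scale (an alternative chosen after seeing the data) and without both HCT15 WT arrays numbered 1, 2 with the replicate block and 3 with arrayWeights, and ran from 0 to 1 without single arrays; the cause was not tested. Between the HCT15 versions the block was the replicate number, which takes equal numbers of different versions as matched. In that fit 230921_s_at was also called (adjusted p = 0.0391 in limma). Probe sets above the reference in all groups were 8 at the 90th and 3 at the 99th percentile, against 5. The replicate block changed no other member call. Signals near those of tissue-restricted genes limit what 8 of the 16 probe sets can show.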
